A study of Homo sapiens with 4 samples.

Results

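The 47 ribosome biogenesis factors described here are nucleolar proteins, processing and assembly factors of both ribosomal subunits and the largest subunits of RNA polymerase I. They were taken by gene symbol from a table of 34545 symbols, and all 47 were found and passed the filter on low counts. Transcripts were sequenced from cells labelled as DLD-1, a colorectal carcinoma line, of wild-type genotype, in 4 libraries of total RNA. The control group (labelled Ctrl) and the creatine group each had 2 libraries, and the study asked how creatine bears on ferroptosis, an iron-dependent form of cell death. The labels give no dose, duration or vehicle, and they do not say whether libraries of a group came from separate cultures, so that a p-value sets a change against a spread that may be technical.

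A ribosome is built in the nucleolus, where RNA polymerase I transcribes a long precursor of ribosomal RNA. Small nucleolar RNAs, bound to proteins as snoRNPs, guide the chemical modification of that precursor, and large assemblies of processing factors, helicases and GTPases then cut, fold and export the small and the large subunit. Many of these genes are textbook targets of the transcription factor MYC, and their output follows the growth rate of a cell.

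Total counts lay between 48249693 and 59860043 per library. In the labelled epithelial line, 10 of 12 colon epithelial markers were under 1 CPM (a count scaled to a common library size) in every library, among them EPCAM, CDX2 and VIL1, which were at 0 counts in 3 of the 4 libraries. The 12 markers summed to 391.7 and 395.5 CPM in controls and to 326.8 and 342.1 CPM with creatine. The mesenchymal marker VIM was at 2687 and 2538 CPM in controls and at 2329 and 2362 CPM with creatine, so the cells are named here by their label only. Summed levels of 10 mesenchymal markers were 6092 and 5983 CPM in controls and 5469 and 5375 CPM with creatine, and those of the 5 endothelial markers in the table were 372.5 and 385.3 CPM and 312.9 and 317.3 CPM. All 3 sums were lower with creatine. Of the 5 endothelial markers, 1 was over 10 CPM and 2 were under 1 CPM in every library. Immune markers summed to 19.33 and 19.05 CPM in controls and to 18.59 and 14.76 CPM with creatine. Fibroblast markers summed to 6.342 and 6.968 CPM and to 4.468 and 7.121 CPM, so the groups overlapped. The part of these markers in the results below was not tested. Changes of all genes followed the GC content of their transcripts. Its slope was positive in the controls (0.0827 and 0.1288 log2 CPM per 10 points of GC) and negative with creatine (-0.1301 and -0.0813). Because this trend separates the groups, changes of the factors that passed, and of some other genes, are also given from another fit. It has an offset that removes any trend with GC content and gene length, and is called the offset fit. Counts come from bulk samples, in which a change in the share of cells of one type cannot be told apart from a change of RNA per cell.

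With creatine, 16 of the 47 factors rose, 5 fell and 26 did not pass (edgeR quasi-likelihood test, Benjamini-Hochberg adjusted p under 0.05 over all 15302 genes tested). Among all genes tested, 9.15% were called higher and 10.5% lower. These shares also stand beside the counts by role given below, and they were not matched to the factors for level. The median log2 fold change (creatine over control) was 0.12 for the factors and 0.01 for all genes. Changes were small, from 0.18 to 0.52 on the log2 scale for the 16 that rose and from -0.30 to -0.23 for the 5 that fell. Together the 47 genes held 1.04% and 1.05% of the counts of the control libraries and 1.13% and 1.16% of those of the creatine libraries. In the offset fit 3 factors were higher (RSL24D1, NOP16 and NCL) and 0 were lower, against 1.52% and 1.19% of all genes. Without creatine replicate 1 the counts were 9 higher and 1 lower (3.51% and 3.76% of all genes), and without creatine replicate 2 they were 7 and 2 (4.59% and 7.52%). Of the 21 calls, 5 passed with any one library left out, and these were RSL24D1, NOP58, NOP10, WDR75 and DDX21.

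**Figure D1:**
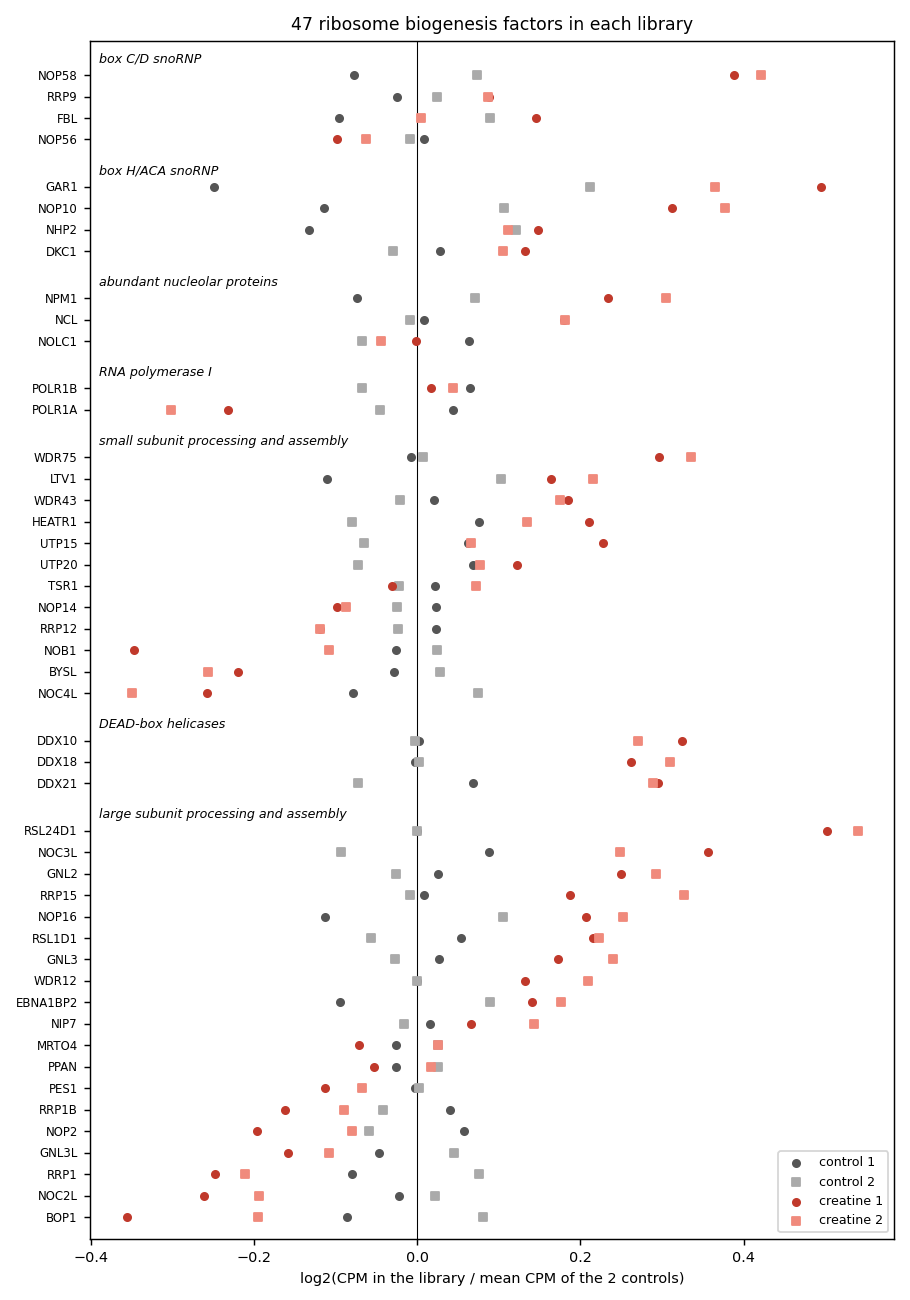
Level of each factor in the 4 libraries, as log2 of its CPM over the mean CPM of both controls (x axis), with genes grouped by role (y axis). Both creatine libraries lie above both controls for 26 genes and below them for 14, and the groups overlap for 7.

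Both creatine libraries were above both controls for 26 factors and below them for 14, as the plot of levels by library shows. Over all genes tested these shares were 29.2% and 28.9%. The groups overlapped for the other 7, which are FBL, NHP2, NOLC1, POLR1B, TSR1, MRTO4 and PPAN.

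The largest change belonged to RSL24D1 (chromosome 15, 55180806 to 55197067, minus strand, GRCh38), a placeholder protein of the early large subunit that holds the site later taken by the ribosomal protein RPL24. It stood at 185 and 185 CPM in the controls and at 262 and 269 CPM with creatine. The controls nearly coincided and both creatine libraries were far above them, by 0.52 on the log2 scale (SE 0.06, adjusted p = 6.5e-05). The offset fit gave 0.24 (adjusted p = 0.02). With the offset and without creatine replicate 1 or 2 the adjusted p was 0.0731 or 0.132. GENCODE lists 9 pseudogenes named after it, of which 7 were in the table, with 0.0501 to 0.272 CPM in sum per library. The 250 bases before its RefSeq start site (chr15:55196942-55197191, minus strand, GRCh38.p14, from RefSeq) are shown because no other factor changed as much. Capitals mark the ETS core motif (CCGGAAG, here on the other strand).
RSL24D1: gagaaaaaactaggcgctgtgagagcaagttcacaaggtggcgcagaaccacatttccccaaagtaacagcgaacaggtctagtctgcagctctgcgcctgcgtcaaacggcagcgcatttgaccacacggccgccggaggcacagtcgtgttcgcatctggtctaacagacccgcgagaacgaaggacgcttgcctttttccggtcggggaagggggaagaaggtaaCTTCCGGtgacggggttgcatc

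Of the 47 factors, 4 are proteins of box C/D snoRNPs, though not all that these particles hold. The particles carry out 2'-O-methylation of ribosomal RNA or, for U3, its early cuts. Of the 4, 1 rose, 0 fell and 3 did not pass. NOP58, a core scaffold protein (chromosome 2, 202265716 to 202303666), was at 155 and 172 CPM in controls and at 214 and 219 CPM with creatine. The groups stood well apart, by 0.41 on the log2 scale (SE 0.07, adjusted p = 5.7e-04). Its partner on the same particle, NOP56, was at 300.4 and 297 CPM and at 279 and 286 CPM (-0.08, 95% interval -0.21 to 0.05, adjusted p = 0.414). The methyltransferase FBL (fibrillarin) was at 0.08 (adjusted p = 0.537) and RRP9, a U3-specific protein, at 0.09 (adjusted p = 0.449). The offset fit gave NOP58 0.21 (adjusted p = 0.0642), RRP9 0.20 (0.104), FBL 0.19 (0.132) and NOP56 0.04 (0.819), the last with its sign turned.

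All 4 proteins of box H/ACA snoRNPs, which turn uridines of ribosomal RNA into pseudouridine, had positive log2 changes, and 2 of them rose. GAR1, which helps to load and release the substrate RNA (chromosome 4, 109815510 to 109824740), was at 35.6 and 49.0 CPM in controls and at 59.6 and 54.5 CPM with creatine. The controls were farther apart than the creatine pair, and the change was 0.43 (SE 0.11, adjusted p = 0.00857). Without control replicate 1 it did not pass (adjusted p = 0.137). NOP10, a small protein at the core of the particle, was at 81.1 and 94.5 CPM and at 109 and 114 CPM (0.34, SE 0.08, adjusted p = 0.00444). The pseudouridine synthase DKC1 (dyskerin) was at 255 and 245 CPM and at 274 and 269 CPM, a narrow gap that did not pass (0.12, adjusted p = 0.202). NHP2 was at 0.13 (adjusted p = 0.3), and 27.4% of its exon bases lie over RMND5B on the other strand. In the offset fit the median of the 4 genes was 0.16 and none passed, with GAR1 at 0.30 (adjusted p = 0.117) and NOP10 at 0.15 (0.246).

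Among the abundant nucleolar proteins, NPM1 and NCL rose and NOLC1 did not pass. NPM1 (nucleophosmin), a histone and ribosome chaperone that gives the nucleolus its outer layer (chromosome 5, 171387116 to 171411137), was at 1716 and 1897 CPM in controls and at 2125 and 2232 CPM with creatine. Every creatine value lay above the controls, by 0.27 on the log2 scale (SE 0.06, adjusted p = 0.00374), and the call was lost without creatine replicate 2 (adjusted p = 0.0648). In the offset fit NPM1 was at 0.08 (adjusted p = 0.525). It has 45 named pseudogenes, and the 44 in the table summed to between 4.72 and 8.86 CPM. NCL (nucleolin), which binds the ribosomal RNA precursor, was at 1209 and 1194 CPM and at 1361 and 1362 CPM. Libraries of a group nearly coincided, and the change was 0.18 (SE 0.06, adjusted p = 0.0291), or 0.20 in the offset fit (adjusted p = 0.026). With an offset for GC content alone NCL was at 0.16 and did not pass (adjusted p = 0.125). Without creatine replicate 1 or 2 NCL did not pass (adjusted p = 0.204 and 0.206, or 0.141 and 0.0923 with the offset). NOLC1 (Nopp140), a snoRNP chaperone of nucleolus and Cajal body, was at 318 and 290.4 CPM and at 304 and 295 CPM, with the creatine libraries between the controls (-0.02, adjusted p = 0.871).

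The largest subunits of RNA polymerase I, which together form its active centre, differed in their values. POLR1A, the largest subunit (chromosome 2, 86020216 to 86106155), fell from 116 and 109 CPM to 95.8 and 91.3 CPM (-0.27, SE 0.07, adjusted p = 0.0123). POLR1B was at 273 and 249 CPM and at 264 and 269 CPM, with both creatine libraries inside the range of the controls (0.03, 95% interval -0.11 to 0.17). POLR1A lost its call without creatine replicate 2 (adjusted p = 0.123), without control replicate 1 (0.052) or in the offset fit (-0.13, adjusted p = 0.313).

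Of 12 factors of small subunit processing and assembly, 2 rose, 2 fell and 8 did not pass, with a median of 0.06. Both that rose belong to the part of the processome that meets the precursor during its transcription. WDR75 was at 119 and 120.3 CPM in controls and at 147 and 151 CPM with creatine, again without overlap (0.31, SE 0.07, adjusted p = 0.00309). WDR43 was at 248 and 241 CPM and at 278 and 276 CPM, a smaller change (0.18, adjusted p = 0.0464) that did not pass without control replicate 2 (adjusted p = 0.11), creatine replicate 1 (0.257) or creatine replicate 2 (0.222). Other members of that subcomplex, HEATR1 and UTP15, were at 0.17 and 0.15 (adjusted p = 0.0925 and 0.308), or 0.02 and -0.05 in the offset fit. Both creatine libraries were above both controls for each, as for 29.2% of all genes tested. For UTP15 the gap was narrow (40.5 CPM in creatine replicate 2, 40.4 CPM in control replicate 1). Exons of LGALS8 on the other strand cover 23.2% of the exon bases of HEATR1.

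The small subunit factors that fell act at other steps. NOC4L, a nucleolar partner of NOP14, was at 35.0 and 38.9 CPM in controls and at 30.9 and 29.0 CPM with creatine (-0.30, SE 0.10, adjusted p = 0.0361). BYSL (bystin), needed for late cuts and export, was at 76.5 and 79.5 CPM and at 67.0 and 65.3 CPM (-0.24, SE 0.08, adjusted p = 0.0336). Neither gene had overlapping groups, and neither passed without control replicate 2 (adjusted p = 0.167 and 0.065), creatine replicate 1 (0.0875 and 0.136) or creatine replicate 2 (0.2 and 0.189). The endonuclease NOB1, which makes the last cut of the small subunit RNA, was at 110.1 and 114 CPM and at 88.1 and 104 CPM (-0.22, adjusted p = 0.0569). RRP12, an export factor, was at 256 and 248 CPM and at 232 and 232 CPM (-0.12, adjusted p = 0.219). LTV1 shares 27.7% and 7.1% of its exon bases with 2 genes annotated on the same strand, so its level is uncertain. The remaining members were LTV1 (0.19), UTP20 (0.10), TSR1 (0.02) and NOP14 (-0.09), with adjusted p from 0.116 for LTV1 to 0.877 for TSR1. In the offset fit 0 of the 12 passed and their median was -0.03, with WDR75 at 0.08, WDR43 at 0.01, NOC4L at -0.10 and BYSL at -0.10.

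All 3 DEAD-box helicases, enzymes that remodel RNA with ATP, rose by similar amounts. DDX21, which senses RNA polymerase I output and works on snoRNA pairing (chromosome 10, 68956128 to 68985073), was at 593 and 538 CPM in controls and at 694 and 691 CPM with creatine (0.29, SE 0.06, adjusted p = 0.00329). DDX18, a large subunit helicase, was at 273 and 274 CPM and at 328 and 339 CPM (0.29, SE 0.06, adjusted p = 0.00358). DDX10, known from yeast for releasing a snoRNA from the small subunit precursor, was at 50.4 and 50.2 CPM and at 63.0 and 60.7 CPM (0.30, SE 0.08, adjusted p = 0.014). Controls and creatine libraries did not overlap for any of the 3. DDX10 lost its call without creatine replicate 1 or 2 (adjusted p = 0.146 and 0.0528), and DDX18 lost it without creatine replicate 2 (0.0585). The offset fit gave 0.10, 0.09 and 0.15 for DDX21, DDX18 and DDX10, and none passed (adjusted p = 0.412, 0.453 and 0.319).

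Of 19 factors of large subunit processing and assembly, 6 rose, 2 fell and 11 did not pass, with a median of 0.11. Beside RSL24D1, the genes that rose included the nucleolar GTPases GNL2 and GNL3, which work on the maturing large subunit. GNL2 was at 113 and 109 CPM in controls and at 132 and 136 CPM with creatine (0.28, SE 0.07, adjusted p = 0.00752). GNL3 (nucleostemin) was at 216 and 208 CPM and at 239 and 250.4 CPM (0.21, SE 0.07, adjusted p = 0.0288). The groups were apart for both, while the calls depended on the libraries used. GNL2 lost its call when creatine replicate 2 was left out (adjusted p = 0.0889), and GNL3 lost it without control replicate 2 (0.0774), creatine replicate 1 (0.103) or creatine replicate 2 (0.269).

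NOP16, an early large subunit factor (chromosome 5, 176383938 to 176388975), was at 104 and 121 CPM in controls and at 129.9 and 134 CPM with creatine. Its change of 0.23 (SE 0.08, adjusted p = 0.0341) was 0.34 in the offset fit (adjusted p = 0.00637), the highest corrected value among the 47. It did not pass without control replicate 1 (adjusted p = 0.316), creatine replicate 1 (0.0976) or creatine replicate 2 (0.182), while with the offset it passed with each of these left out. Exons of ARL10 and HIGD2A cover 344 and 227 of its 2860 exon bases on the other strand, and the strand setting of the counting is not given in the sources used here. RSL1D1, which shares its fold with ribosomal protein L1, was at 339 and 314 CPM and at 379 and 381 CPM (0.22, SE 0.06, adjusted p = 0.0189), and did not pass without control replicate 2 (0.0738), creatine replicate 1 (0.131) or creatine replicate 2 (0.137). The offset fit gave 0.18 for GNL2, 0.12 for RSL1D1 and 0.05 for GNL3, none of which passed.

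Partners within a complex had values on both sides of 0. In the NOC proteins, which in yeast pair up to carry large subunit precursors out of the nucleolus, NOC3L rose from 127 and 112 CPM to 153 and 142 CPM (0.31, SE 0.08, adjusted p = 0.00674). NOC2L (chromosome 1, 944204 to 959309) fell from 393 and 405 CPM to 333 and 349 CPM (-0.23, SE 0.06, adjusted p = 0.0146). Both had groups that did not overlap, and neither passed without creatine replicate 1 (adjusted p = 0.106 and 0.204), nor NOC2L without creatine replicate 2 (0.0541). In the PeBoW complex, needed to process the precursors of the large subunit RNAs, BOP1 (chromosome 8, 144262102 to 144291370) fell from 246 and 276 CPM to 204 and 228 CPM (-0.27, SE 0.07, adjusted p = 0.0109). Its partners did not pass, PES1 at -0.09 (adjusted p = 0.344) and WDR12 at 0.17 (0.0846), and BOP1 did not without creatine replicate 1 (0.212). In the offset fit NOC3L was at 0.03, NOC2L and BOP1 at 0.02 and WDR12 at -0.00. PES1 was at 0.12 (95% interval 0.01 to 0.23, not adjusted) and did not pass (adjusted p = 0.288). The signs of NOC2L, BOP1 and PES1 had turned.

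The remaining large subunit factors did not pass. RRP15 was at 0.26 (adjusted p = 0.0571), EBNA1BP2 at 0.16 (0.11) and NIP7 at 0.11 (0.311). The paralogs RRP1 and RRP1B were at -0.23 and -0.13 (0.0983 and 0.308), the methyltransferase NOP2 at -0.14 (0.196) and the GTPase GNL3L at -0.14 (0.177). MRTO4 and PPAN were at -0.02 each (0.881 and 0.935). For NOP2 and PPAN, 54.4% and 56.0% of the exon bases are shared with a gene annotated on the same strand, so their levels are uncertain.

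**Figure D2:**
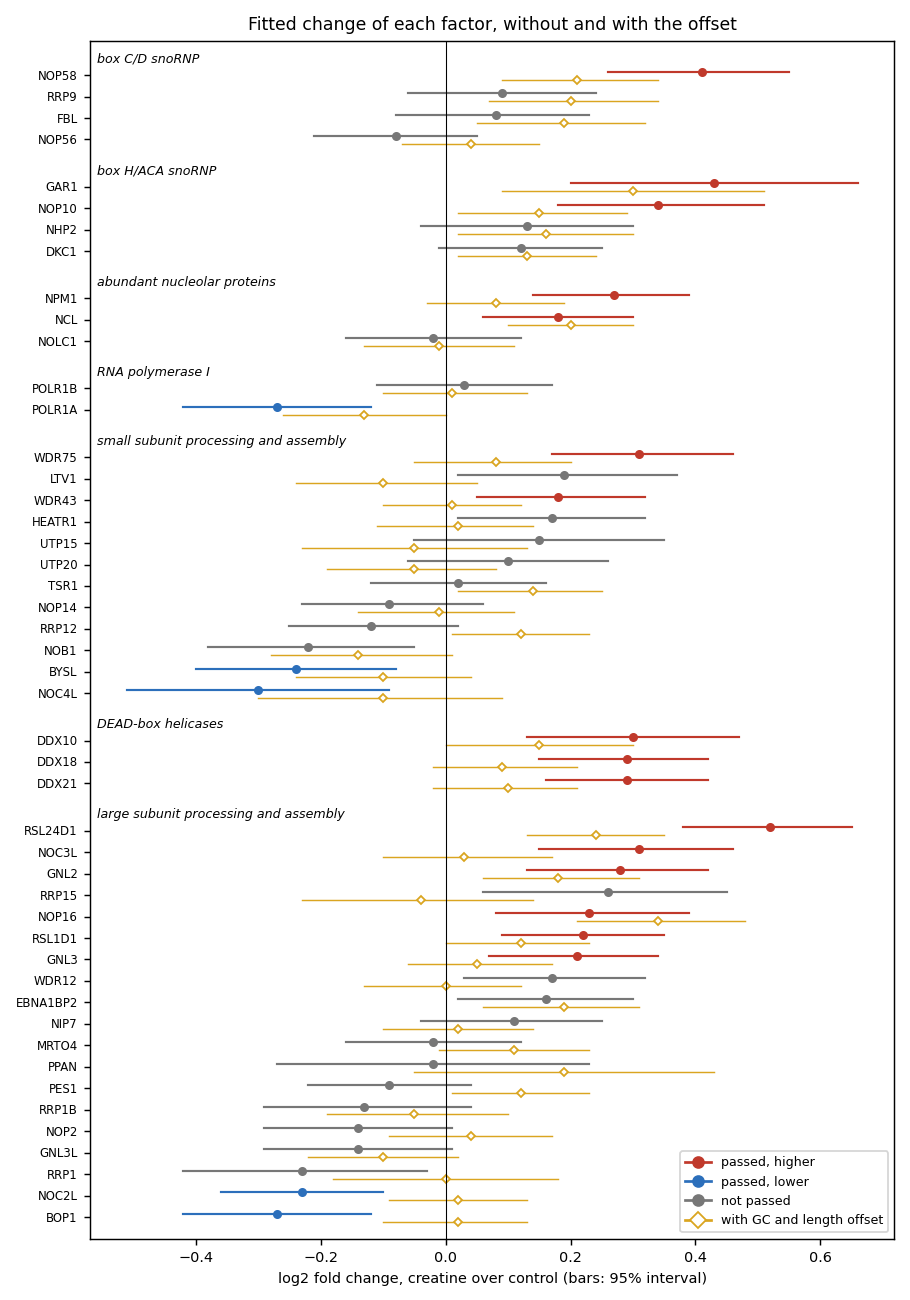
Log2 fold change of each factor, creatine over control (x axis), with its 95% interval, from the fit without the offset (filled circles, red for passed and higher, blue for passed and lower, grey for not passed) and with the GC and length offset (open diamonds). With the offset the values span -0.14 to 0.34, and RSL24D1, NOP16 and NCL are the genes that passed.

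Per length, the levels of the factors were compared as RPKM, the CPM divided by the gene length in kilobases. NPM1 was highest, with 448 to 583 RPKM over the libraries, followed by NCL (172 to 197 RPKM) and NOP10 (146 to 206 RPKM), whose ranges overlap, and then DDX21 (107 to 138 RPKM). RRP15 was lowest (4.46 to 5.62 RPKM), below PPAN (6.18 to 6.55 RPKM) and UTP15 (5.85 to 7.16 RPKM), which overlapped each other. POLR1A, at 7.62 RPKM, was far below POLR1B at 41.7 RPKM, though both belong to one enzyme. The gene length used here is the deposited one, which counts exons of every isoform and so lowers the value of genes with long rare exons.

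Ratios of partner genes within each library compare them without a scaling between libraries. NOP58 over NOP56, in RPKM, was 0.843 and 0.949 in controls and 1.26 and 1.26 with creatine, a change of 1.4-fold. GNL3 over its paralog GNL3L was 1.39 and 1.25 in controls and 1.67 and 1.68 with creatine (1.27-fold). In both pairs every creatine library was above every control, which the exact permutation test of 2 against 2 cannot take below p = 0.333 (two-sided, 0.444 adjusted over the 8 pairs computed). RRP1 over RRP1B was 0.793 and 0.937 in controls and 0.814 and 0.795 with creatine, so the groups overlapped (exact p = 1).

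RSL24D1 over RPL24, the ribosomal protein that replaces it, was 1.42 and 1.09 in controls and 1.38 and 1.36 with creatine. The creatine values lay between the controls (exact p = 1). RPL24 itself was at 116 and 151 CPM in controls and at 169.5 and 176 CPM with creatine (0.37, SE 0.09, adjusted p = 0.00523), and did not pass without control replicate 1 (0.0641) or in the offset fit (0.29, 0.0596). Of 4 pairs chosen after their values were seen, NOC3L over NOC2L went from 0.4 and 0.342 to 0.569 and 0.504, and WDR12 over BOP1 from 0.189 and 0.168 to 0.249 and 0.235. NOC3L over NOC4L was 1.52-fold and WDR12 over PES1 1.2-fold higher with creatine, without overlap between the groups. The exact permutation test of these 4 pairs gave p = 0.333 each (0.444 adjusted over the 8 pairs). It carries no weight, since the pairs were chosen with their values known. These ratios are not corrected for GC content, which differs within the pairs.

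**Figure D3:**
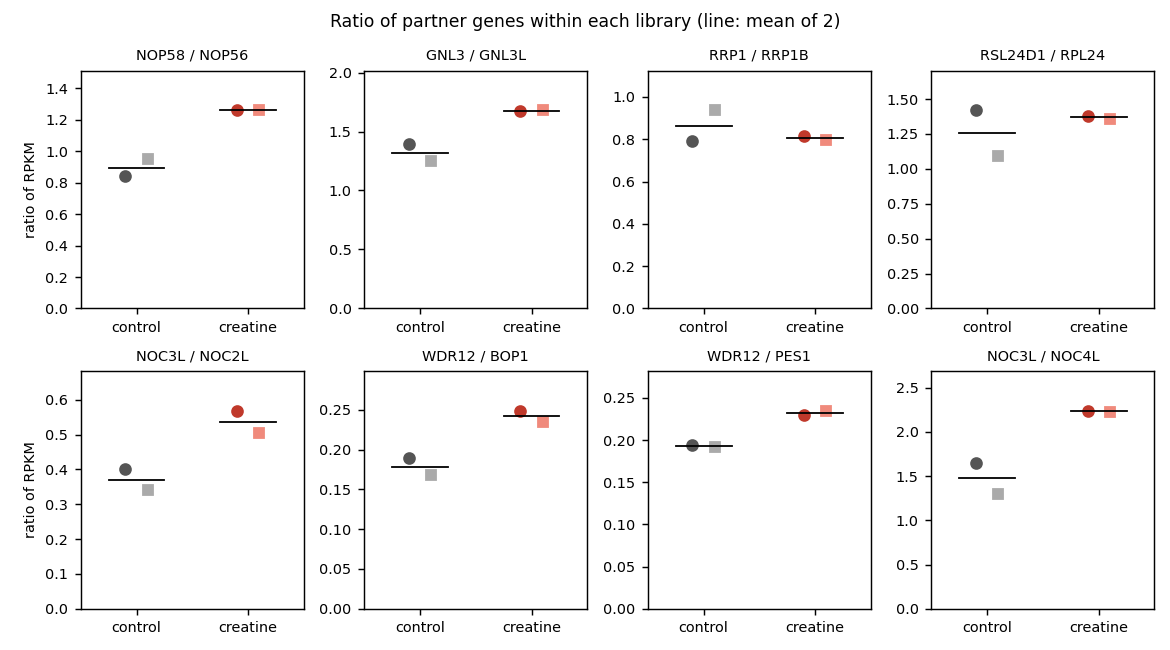
Ratio of RPKM of partner genes within each library (y axis) for control (grey) and creatine libraries (red), with circles for replicate 1, squares for replicate 2 and a line at the mean of both. NOP58 over NOP56 is at 1.26 in both creatine libraries, above 0.843 and 0.949 in the controls, while RSL24D1 over RPL24 overlaps between the groups.

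The direction of change followed transcript GC content within the factors. The 16 that rose had a GC content from 37.8% to 54.4% (median 42.0%), and the 5 that fell from 52.2% to 65.3% (median 58.7%). Under 45% GC, 12 of 18 factors rose and 0 fell, where 22.7% of all tested genes of that class rose. Over 55% GC, 0 of 14 rose and 4 fell, where 27.5% of all tested genes of that class fell. In between, 4 of 15 rose (NOP10, GAR1, NCL and NOP16) and 1 fell (POLR1A), beside 3.46% and 6.28% of all genes there. All genes of a class were not matched to the factors for level, and mean levels of the factors ran from 16.5 to 1992 CPM. The part of level in these shares was not tested. Median log2 changes of the factors and of all genes in a class were 0.26 and 0.20 under 45% GC. In between they were 0.03 and -0.03, and over 55% they were -0.13 and -0.22. The rank correlation of change with GC content (Spearman) was -0.78 over the 47 factors and -0.53 over 15286 genes, as a description, since all values come from the same 4 libraries. With the offset it was 0.02 over the factors. The median of the factors was then 0.05, against 0.00 for all genes.

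**Figure D4:**
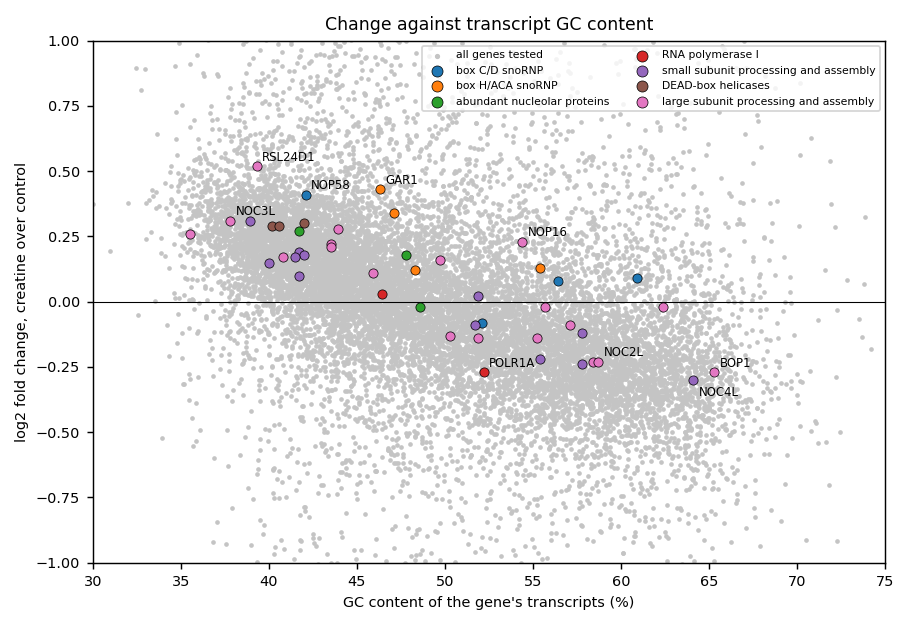
Log2 fold change, creatine over control (y axis), against the GC content of a gene's transcripts (x axis, percent) for all genes tested (grey) and the 47 factors coloured by role. The factors run from RSL24D1 (0.52) at 39.3% GC down to NOC4L and BOP1 (-0.30 and -0.27) above 60% GC, along the cloud of all genes, and 561 genes lie outside the axes.

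The promoters of many of these genes hold the E-box CACGTG, the site bound by MYC with its partner MAX. RefSeq promoters (GRCh38.p14, from 250 bases before the start site to 50 after it) matched 40 of the 47 factors. Of these 17 (42.5%) held CACGTG, which reads the same on both strands, against 12.2% of 11330 tested genes and 8.77% of all 27305 genes with a promoter. Of the 17, 7 rose, 1 fell and 9 did not pass (median 0.16), and of the 23 without it 6 rose and 3 fell (median 0.12). The shares over all genes tested were 9.15% higher and 10.5% lower. The ETS core CCGGAAG, searched on both strands, was also held by 17 (42.5%), against 20.5% of the tested genes. Windows around CACGTG are shown for 5 factors that changed, with the motif in capitals. They lie at chr15:34343130-34343159 (NOP10, minus strand), chr2:28894658-28894687 (WDR43, plus), chr10:68956604-68956633 (DDX21, plus), chr3:52686026-52686055 (GNL3, plus) and chr6:41921515-41921544 (BYSL, plus).
NOP10: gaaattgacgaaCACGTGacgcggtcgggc
WDR43: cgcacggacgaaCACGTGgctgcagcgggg
DDX21: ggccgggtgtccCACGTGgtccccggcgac
GNL3: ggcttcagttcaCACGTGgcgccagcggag
BYSL: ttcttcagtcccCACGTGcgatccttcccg

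The first base of the motif shown lies 11 bases before the start site in NOP10 (offset -11) and 31 before it in DDX21 (offset -31). It lies at offsets of 3, 6 and 28 in WDR43, GNL3 and BYSL. The NOP10 promoter holds another copy at offset -170, which is not shown. NOP10, WDR43, DDX21 and GNL3 were among the factors that rose and BYSL among those that fell, so genes with the motif went both ways. MYC itself was lower with creatine, at 307 and 317 CPM in controls and at 251 and 267 CPM (-0.27, SE 0.07, adjusted p = 0.00633). The call of MYC was lost without creatine replicate 1 (adjusted p = 0.138) or in the offset fit (-0.11, 0.355). A match of letters is no evidence of binding in these cells.

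Of the factors, 8 carry named snoRNAs within their gene bodies, so that one transcript yields a protein of the pathway and an RNA of it. These hosts were NOP56, NOP58, DKC1, NCL, WDR43, TSR1, GNL3 and PPAN. Of the 8 hosts 4 rose and 0 fell (median 0.15), beside 12 and 5 of the 39 others (median 0.11). Over all genes tested 9.15% were higher and 10.5% lower, and 8 genes are too few to set against these shares. Of 23 such snoRNAs 21 were in the table, 6 of them at 0 in every library and none above 55 counts in any. Too few reads were therefore counted to compare them. Some hosted box C/D snoRNAs are shown from GENCODE 29 with their box C (ATGATGA or GTGATGA) and box D (CTGA) in capitals, the motifs on which NOP58, NOP56 and fibrillarin assemble. SNORD11 lies in NOP58 (chr2:202293051-202293134, plus strand), SNORD20 in NCL (chr2:231456444-231456523, minus), SNORD92 in WDR43 (chr2:28913664-28913748, plus) and SNORD69 in GNL3 (chr3:52692736-52692812, plus), each in an intron and with a host that rose. SNORD92 had 0 counts in every library and the other 3 had 28 to 50 counts over all libraries.
SNORD11: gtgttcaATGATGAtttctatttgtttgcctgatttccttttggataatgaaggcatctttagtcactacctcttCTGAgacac
SNORD20: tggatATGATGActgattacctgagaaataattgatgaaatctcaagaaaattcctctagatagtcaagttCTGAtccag
SNORD92: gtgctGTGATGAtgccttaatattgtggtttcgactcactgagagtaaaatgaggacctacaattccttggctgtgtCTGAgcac
SNORD69: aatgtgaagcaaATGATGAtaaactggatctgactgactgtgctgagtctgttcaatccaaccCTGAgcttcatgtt

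Other genes of the pathway, taken from 5 lists, moved both ways as well. For comparison, 9.15% of all genes tested were higher and 10.5% lower, and 1.52% and 1.19% in the offset fit. Of 132 pathway genes tested, 35 were higher and 15 lower (median 0.09), and 7 and 1 in the offset fit (median 0.05). The share that was lower was thus close to that of all genes. Without creatine replicate 1 the counts of these 132 genes were 20 and 6, and without creatine replicate 2 they were 19 and 11. Of 45 further small subunit factors 13 rose and 5 fell. Of 47 further large subunit factors 13 rose and 7 fell. Of 16 other subunits and factors of RNA polymerase I 4 rose and 3 fell, and of 13 genes of the RNA exosome 3 rose and 0 fell. Of 11 genes listed under snoRNP assembly 2 rose and 0 fell.

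The genes with the smallest p in these lists were again a mix of directions. The export adaptor NMD3, which works beside RSL24D1 on the large subunit, was at 194 and 193 CPM in controls and at 255 and 255 CPM with creatine (0.40, adjusted p = 3.8e-04), and it passed in the offset fit (0.25, adjusted p = 0.0137). RPF2, which brings in the 5S particle, rose from 131 and 131 CPM to 177 and 181 CPM (0.45, adjusted p = 2.3e-04), or 0.22 with the offset (0.0436). ZNHIT6, a box C/D assembly factor, rose from 79.1 and 77.5 CPM to 113 and 106 CPM (0.49, adjusted p = 2.3e-04), or 0.26 with the offset (0.0292). These 3 passed in both fits. So did RRP36 of these lists, which was lower (-0.27, adjusted p = 0.0342, or -0.36 with the offset, 0.0131). With the offset, NMD3 lost its call without creatine replicate 1 (adjusted p = 0.0932) or 2 (0.0511), and RPF2 and ZNHIT6 lost theirs without control replicate 1 (0.0964 and 0.0527), creatine replicate 1 (0.144 and 0.276) or creatine replicate 2 (0.239 and 0.0522).

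Others passed without the offset and not with it. The small subunit genes ESF1 (0.55), DCAF13 (0.40) and WDR36 (0.40) and the RNA polymerase I factor gene TAF1D (0.48) rose. The helicase gene DDX54 (-0.50), the nucleolar cofactor of RNA polymerase I TCOF1 (-0.33) and TAF1C (-0.36) fell. Corrected values were 0.21, 0.19, 0.16 and 0.23 for those that rose and -0.23, -0.07 and -0.06 for those that fell (adjusted p from 0.057 to 0.791). Of exosome genes, EXOSC8 (0.38), DIS3 (0.30) and ZCCHC7 (0.29) rose. From the list named snoRNP assembly, RPAP3 (0.31) rose and AAR2, a member by that list only, did not pass (-0.21, adjusted p = 0.0694). None of these 5 passed with the offset, and ZCCHC7 and RPAP3 did not without creatine replicate 1 (adjusted p = 0.481 and 0.195). TAF1C lost its call when creatine replicate 2 was left out (adjusted p = 0.0513).

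RPL5 and RPL11 are ribosomal proteins that join the large subunit with its 5S RNA, as the particle that RPF2 brings in. RPL5 was at 1235 and 1366 CPM in controls and at 1483 and 1593 CPM with creatine (0.24, adjusted p = 0.00933). RPL11 was at 797 and 998 CPM and at 1069 and 1074 CPM (0.26, adjusted p = 0.0197). Both creatine libraries were above both controls for each gene. Neither passed in the offset fit (adjusted p = 0.681 and 0.129). RPL5 lost its call without creatine replicate 2 (adjusted p = 0.174), and RPL11 without control replicate 1 (0.207), creatine replicate 1 (0.0533) or creatine replicate 2 (0.0557). In the MYC network list, MXD4 and MNT, which encode repressors that compete for MAX, fell beside MYC (-0.37 and -0.40, adjusted p = 0.0118 and 0.0177), and neither passed without creatine replicate 1 (0.0958 and 0.316) or with the offset (0.717 and 0.65).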

How the data were processed

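Total RNA was turned into libraries with TruSeq reagents, per the labels' protocols. Per the submitters' processing notes, the tools were HISAT2 2.2.1, FastQC 0.11.9, DESeq2 and featureCounts, on GRCh38. Which gene annotation was counted, with which strand setting, and how reads with several matches were handled is not given in the sources used here. The deposited table held raw read counts per gene symbol, not normalized by the authors, and a gene length in bases. Of 34545 symbols, 34430 matched GENCODE 29 by current or older symbol, which gave coordinates, overlaps and the GC content over all transcripts of a gene.

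The test was edgeR 4.0.16 under R 4.3.3 (filterByExpr, TMM factors from 0.9928 to 1.008, quasi-likelihood test with the group as its only term, Benjamini-Hochberg over 15302 genes). Each gene had 2 residual degrees of freedom, or a median of 22.9 once the spread was pooled across genes. A count of 3, the level that a count of 0 allows, came to 0.0501 to 0.0622 CPM, for counting error only. The offset was a curve fitted in every library to log2 CPM by GC content and log2 length (mgcv 1.9.3), and it removes any change that follows them, whatever produced it. No GC value was found for 16 tested genes, which took the median. On simulated counts for 14963 genes with 50 changed genes per size, this test found 26% of those changed 1.25-fold and 64% of those changed 1.5-fold (80% for 2-fold, 98% for 4-fold) and made 4 false calls. The simulated counts held no trend with GC content or length, while the libraries differed by group in their GC trend. These figures therefore do not cover calls that follow that trend.

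Alternatives were RLE and upper quartile scaling, no filter or 1 CPM in 2 libraries, DESeq2 1.42.0, limma-voom 3.58.1, robust edgeR, a replicate block, the offsets, and each library left out, where the lone sample of a group is assumed to vary like the others. Replicate numbers are not said to pair libraries. The factors, roles and gene lists were chosen with earlier results of these data known. The rule for naming took the 20 factors of smallest p among those that passed, the factor of highest mean CPM in each role group, paralogs with RPL24, and outside the 47 the 3 genes of smallest p in each list and MYC. WDR43, which also passed, and RRP36, outside the 47, were added after their values were seen. A gene that the rule names is not reported here.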

Additional observations from a re-analysis of the deposited data

How the results depend on the processing

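The counts of 16 factors higher and 5 lower stayed within 1.5 times under RLE or upper quartile scaling, no filter, 1 CPM in 2 libraries, DESeq2, limma-voom, robust edgeR and the replicate block, and these changed the call of 2 of the 28 genes recomputed one by one, in 1 setting each (WDR43 with no filter, NOC4L with upper quartile scaling). The GC and length offset gave 3 and 0 factors, 7 and 1 of the 132 other pathway genes (35 and 15 without it) and 232 and 182 of all genes (1400 and 1601 without it). The GC offset alone gave 3 and 0, 4 and 0, and 163 and 135. Its 3 factors were RSL24D1, NOP16 and RRP9 (RRP9 at 0.32, adjusted p = 0.0225). NCL did not pass with GC alone (0.16, adjusted p = 0.125), so its call in the offset fit depends on the length term. The replicate block, as a pairing by number, gave 18 and 6 factors and changed no call among the 28, and libraries of the same number did not deviate together (correlation -0.0613 over 12385 genes). With the block and the GC and length offset the counts were 7 and 0, 10 and 3, and 441 and 353. With 1 library left out, factors higher ranged from 7 to 16 and lower from 1 to 6, other pathway genes from 19 to 36 and from 6 to 21, and all genes from 561 to 1378 and from 601 to 1738. With the offset as well, these ranges were 1 to 8 and 0 to 0, 1 to 13 and 0 to 2, and 80, 169, 206 and 546 and 71, 132, 139 and 408. The offset is built to remove what follows GC content, and a fit without a library has fewer samples. No other cause was tested. Signs turned in some setting for 7 of the 28. With the offset BOP1 went from -0.27 to 0.02 (0.02 with the block, 0.00, 0.03 and 0.05 in 3 of the 4 fits with 1 library left out), NOC2L from -0.23 to 0.02 (0.02 with the block, 0.00, 0.01, 0.02 and 0.03 with 1 left out) and NOP56 from -0.08 to 0.04 (0.04 with the block, 0.00 with GC alone, 0.03 to 0.05). POLR1B went from 0.03 to -0.02 with GC alone, -0.05 without control replicate 2, and -0.04 and -0.00 in offset fits without control replicate 2 or creatine replicate 2. In offset fits with 1 library left out, NOC3L reached -0.05 and -0.01, WDR43 -0.00, and RRP1 0.00 and 0.06. Of the factors not among the 28, the offset also turned PES1 (-0.09 to 0.12), RRP12 (-0.12 to 0.12), NOP2 (-0.14 to 0.04), LTV1 (0.19 to -0.10), UTP15 (0.15 to -0.05), UTP20 (0.10 to -0.05), RRP15 (0.26 to -0.04), MRTO4 (-0.02 to 0.11) and PPAN (-0.02 to 0.19), and WDR12 reached -0.00. With 2 libraries a group, log2 changes of about 0.1 were within the intervals of these genes and could not be detected.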
